A study of Mus musculus with 12 samples.

Results

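Whole testes of mice carrying Sox2 in place of Sox3 at the Sox3 locus (Sox3-Sox2KI, here KI) were compared with wild-type (WT) testes, to ask how completely Sox2 in that locus restored wild-type expression and which genes stayed between the wild-type and the knockout level. The comparison took 9 of the 12 testes of the study, chosen by the genotype in the labels: 3 KI testes and all 6 WT testes, of which 3 were littermates of KI mice (WT 1 to 3) and 3 were littermates of Sox3-KO mice (WT 4 to 6). The other 3 testes, from Sox3-KO mice (KO), gave the level that a gene reached without Sox3. All mice were C57BL/6N and 2 weeks old, both mutants were made with CRISPR/Cas9, and no treatment was given. The labels do not say whether each mutant group comes from 1 founder line. RNA of each testis was hybridised to 1 Affymetrix whole-transcript array, and values are log2 levels, so that a difference of 1 is a doubling. For each of 22180 genes the transcript cluster with the highest mean over the 12 arrays was used.

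SOX2 and SOX3 belong, with SOX1, to the SoxB1 family of transcription factors, which share a DNA-binding HMG domain and can stand in for one another in the neural lineage. In the postnatal testis Sox3 is X-linked and is made in undifferentiated spermatogonia that are leaving the stem cell pool. These cells also make NEUROG3, while GFRA1 and RET, which together form the receptor for the growth factor GDNF, mark the stem-enriched spermatogonia that precede them. At this age the first wave of spermatogenesis has entered meiotic prophase, so whole testis RNA holds spermatogonia, early meiotic cells and somatic cells.

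The promoters of Neurog3 and Gfra1 are shown as those of 2 spermatogonial genes whose KI level lay between WT and KO in nearly all settings tried. The Ret promoter is not shown here. Each sequence is the 250 bases before the RefSeq transcription start on the GRCm38.p6 assembly, for Neurog3 chr10:62132840-62133089 on the plus strand and for Gfra1 chr19:58455399-58455648 on the minus strand, written on the strand of the gene. Capitals mark a match to the SOX-type hexamers ACAATG or ACAAAG or to their reverse complements CATTGT and CTTTGT.
Neurog3: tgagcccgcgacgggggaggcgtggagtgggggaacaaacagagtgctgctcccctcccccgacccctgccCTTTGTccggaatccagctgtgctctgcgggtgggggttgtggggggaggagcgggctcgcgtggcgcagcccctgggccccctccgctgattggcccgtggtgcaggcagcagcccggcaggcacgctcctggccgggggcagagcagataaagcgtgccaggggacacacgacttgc
Gfra1: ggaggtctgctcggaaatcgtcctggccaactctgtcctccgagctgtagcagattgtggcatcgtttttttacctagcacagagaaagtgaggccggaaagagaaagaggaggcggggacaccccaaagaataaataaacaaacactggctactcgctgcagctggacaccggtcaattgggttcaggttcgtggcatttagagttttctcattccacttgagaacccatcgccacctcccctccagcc
The Neurog3 promoter held 1 match, CTTTGT, with its first base 179 bases before the start, and the Gfra1 promoter held none. Of all 32851 mouse promoter windows of 250 bases, 25.24% held at least 1 such hexamer, and by gene, over all promoters of a gene, 28.15% of 27025 genes did. Among the genes higher in KO, 11 of the 50 matched to a promoter held one (22%), and among the genes lower in KO 42 of 189 (22.22%). A match is a description of letters and was not tested as a binding site.

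Sox3 itself, the replaced gene, was measured first. The WT testes ran from 7.21 to 7.36 with a median of 7.28, and the KO testes were at 6.57, 6.596 and 6.65, all below WT. The KI testes were at 7.26, 6.75 and 6.95. KI 2 and KI 3 lay between the WT and KO ranges, and KI 1 lay inside the WT range. The KI level was 0.30 lower than WT (95% interval -0.50 to -0.10, exact permutation p = 0.0952, two-sided over 84 splits, where 0.0238 is the smallest possible). Probe positions within Sox3 were not used here, so this level does not test whether the reading frame was replaced, and the library labelled KI 1 is kept under its label.

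Sox2, the inserted gene, was dim on these arrays. A background level of 5.33 was taken as the 95th percentile of 1105 olfactory receptor genes, most of which are silent outside the nose, and Sox2 lay under it in every testis. KI testes were at 4.51, 4.31 and 4.16, and WT testes ran from 3.81 to 4.22 with a median of 4.04. KI 1 and KI 2 were above every WT testis and KI 3 was within the WT range, with a difference of 0.29 (95% interval 0.05 to 0.53, exact permutation p = 0.0714, two-sided). Against the 3 littermates of KI mice the Sox2 difference was 0.14, with an exact permutation p of 0.3 over 20 splits, where 0.1 is the smallest possible. Sox1, the third family member, was also near background, at 5.15 ± 0.12 in KI (SD, n = 3) against 5.10 ± 0.09 in WT (SD, n = 6; difference 0.05, exact permutation p = 0.5).

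**Figure D1:**
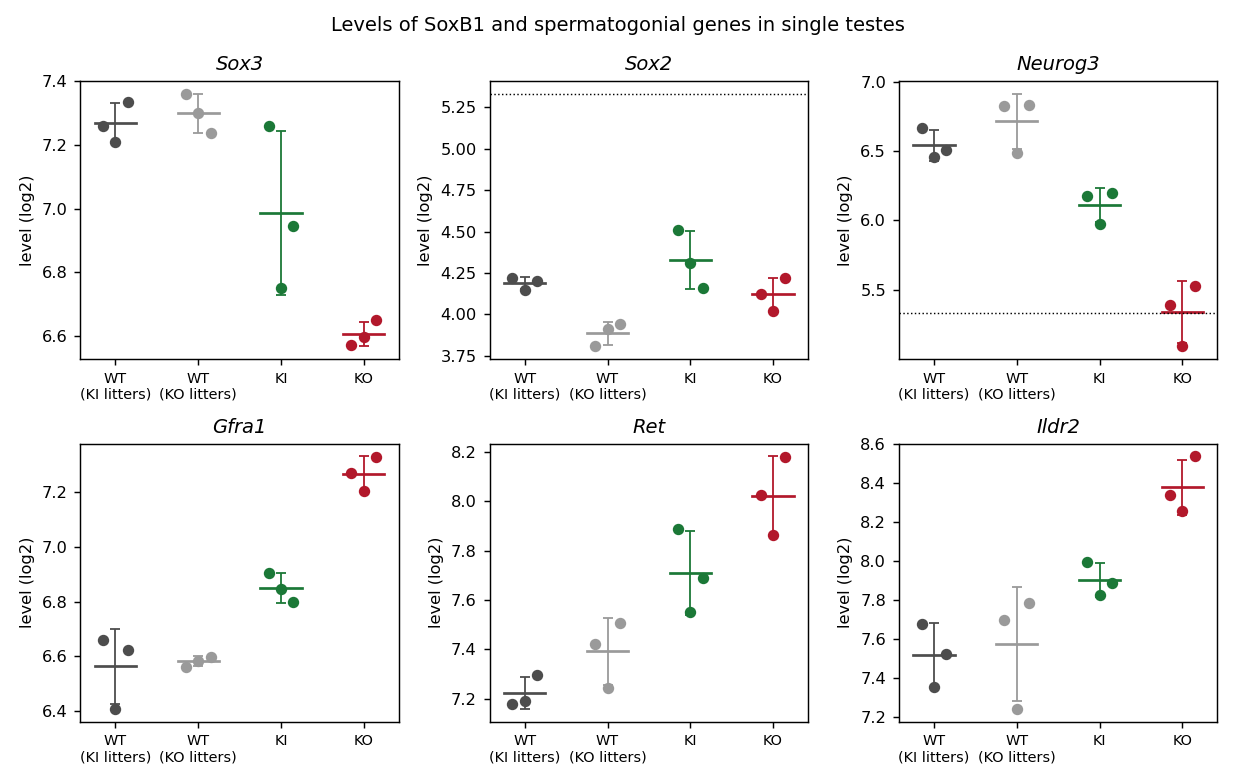
Log2 level of 6 genes in each testis, with WT littermates of KI and of KO mice shown apart. Points are single testes, the wide bar is the group mean, the whisker is 1 SD and the dotted line is the background of 5.33. Neurog3, Gfra1 and Ildr2 show all 3 KI testes between the WT and KO ranges, in Ret KI 1 is above the lowest KO testis, and in Sox3 KI 1 is inside the WT range.

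Markers of testis were present. The germ cell helicase gene Ddx4 averaged 11.05 in WT and 10.88 in KI, and the Sertoli cell factor gene Sox9 averaged 10.21 in WT and 10.40 in KI, all far above background. Some testes stood apart from their group before any gene was tested. KO 2 was closer to WT than the other KO testes. KI 1 was above the whole WT range in 19 of 25 immediate early genes, a list chosen after the values were seen (3768 of all 22180 genes were above that range in KI 1), with a list mean of 7.64 against 6.92 and 7.07 in KI 2 and KI 3 and 6.86 to 7.12 in WT and 7.15 to 7.31 in KO. The share of all genes outside the WT range was 31.6% in KI 1, 23.6% in KI 2 and 28.5% in KI 3. The WT testes also differed among themselves, since WT 4 and WT 6 had lower meiotic transcript levels than the other 4.

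No gene passed the test between KI and WT. Limma with Benjamini-Hochberg adjustment over 22180 genes called 0 genes (0%), with a smallest adjusted p of 0.945. An unadjusted p under 0.05 was reached by 1163 genes (5.24%), 517 higher (2.33%) and 646 lower (2.91%) in KI. The count stayed at 0 with array weights, other normalizations, own littermates as the sole controls, and any 1 array left out. All 3 KI testes lay above every WT testis in 398 genes (1.79%) and below every WT testis in 290 (1.31%).

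The intervals of the difference say how large a change could have been missed. The margin of the 95% interval on either side of the KI minus WT difference had a median of 0.22. The whole interval lay within 1.5-fold of WT for 20517 genes (92.5%) and within 1.2-fold for 7972 (35.9%). For most genes a change of 1.5-fold or more was therefore outside the interval, while a change of 1.2-fold was not.

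A measured KI change of 1.5-fold or more was seen in 25 genes, 7 higher and 18 lower, of which 17 were under background in both groups. Among those above background, 4 were genes of fat cells. The level of Car3, a carbonic anhydrase abundant in fat and muscle, was 7.02, 6.19 and 5.73 in KI and 7.09 to 8.52 in WT, a difference of -1.34. In KO, Car3 was at 7.95, 5.86 and 6.97. Fabp4, a fatty acid carrier of adipocytes, differed by -1.14 in KI, Cidec, a lipid droplet protein gene, by -0.66, and Retn, the gene of the fat hormone resistin, by -0.65. KI 1 was inside the WT range of Fabp4, at 6.15. KO 2 was also below every WT testis in Fabp4 (5.16), Cidec (4.31) and Retn (5.40), while KO 1 and KO 3 were not. Of 16 measured adipocyte markers, a list written after these values were seen, 11 were lower in KI and 3 had all KI testes below WT, beside 11172 lower and 290 (1.31%) wholly below among all 22180 genes. The list mean was 6.11, 5.98 and 5.83 in KI, 6.06 to 6.54 in WT and 5.85 to 6.34 in KO. Its part in other results was not tested. Nr4a1, an immediate early gene, was 0.66 higher in KI on average, which came from KI 1 at 10.67, since KI 2 at 7.77 and KI 3 at 8.64 were below the highest WT testis at 9.20.

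The genes of smallest p in KI against WT mixed spermatogonial genes with dim ones. By p, the 10 highest-ranked increases were Pcdhb15, Gm10451, Rnf125, Lamtor3-ps, Olfr1450, Fpr-rs4, Usp17lc, Gfra1, Cpne5 and Ret. The 10 decreases were 5430440P10Rik, Crtac1, 1700091H14Rik, 4833407H14Rik, Ppcs, Gm19299, A330049N07Rik, Ucn2, Prss29 and Neurog3. In all 20 the KI and WT testes did not overlap and the difference from own littermates had the same sign. Choice by smallest p favours both, and own littermates are among the same WT testes, so neither is a separate check. Of the 20, 10 were under background in WT and none passed adjustment (limma adjusted p = 0.945 for each).

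Outside the spermatogonial genes, some of these 20 had a KI level unlike both WT and KO. Ppcs, an enzyme gene of coenzyme A synthesis, was at 6.43, 6.34 and 6.34 in KI, 6.58 to 6.87 in WT and 6.75 to 6.79 in KO. Cpne5, a calcium-dependent membrane-binding protein gene, was at 7.81, 7.82 and 7.85 in KI, 7.39 to 7.65 in WT and 7.39 to 7.66 in KO. Rnf125, a ubiquitin ligase gene, was at 6.64, 6.36 and 6.66 in KI, 6.10 to 6.33 in WT and 6.20 to 6.32 in KO. For Ppcs, Cpne5 and Rnf125 the KI testes lay beyond both other groups, whereas Crtac1, a secreted matrix protein gene, had both mutants on the same side. The Crtac1 level was 5.74, 5.67 and 5.61 in KI, 5.63, 5.49 and 5.47 in KO and 5.96 to 6.05 in WT. Its KI difference was -0.33 and its KO difference was -0.47, so Crtac1 passed in KO (limma adjusted p = 0.0149) but fell short of 1.5-fold.

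To measure restoration, a reference set was formed of the genes that KO changed. The same fit called 558 genes higher (2.52%) and 520 lower (2.34%) in KO than in WT, and 75 of the higher (0.338%) and 240 of the lower (1.08%) changed by at least 1.5-fold. For these 315 genes, recovery was defined as the share of the KO change that was not seen in KI, so that 100% means the WT level and 0% the KO level. The KI and KO comparisons share the 6 WT testes, and an unusual WT testis moves both. The genes were also chosen by the p and size of their KO change, which can overstate that change and so raise recovery. Recovery is therefore given as a description with no test.

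Most of the measured KO change was absent in KI. Recovery over the 315 genes had a median of 84.5%, with a middle range of 76.9% to 90.8%, and ran from 29.9% to 139.6%. The median was 83.5% for the 75 genes higher in KO and 84.5% for the 240 lower in KO. The lower quartile was 64.6% in the higher genes and 79.0% in the lower genes. No gene of the set was under 25%, 62 were between 25% and 75%, and 253 were over 75%, of which 27 were past full recovery. The genes between the limits were 31 of the 75 higher in KO and 31 of the 240 lower in KO.

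For single genes the intervals were wide. The 95% interval of the KI change held 0 in 299 of the 315 genes, a share like that over all genes (21017 of 22180). It stopped short of the full KO change in 310, against 5329 of all genes, but the 315 were chosen for a large KO change. The interval lay wholly within 1.5-fold of WT in 183 of the 315, against 20517 of all genes. Limma called 0 genes (0%) between KI and KO, with a smallest adjusted p of 0.13, while 3993 (18%) had an unadjusted p under 0.05 and 57 passed when genes below the median level were left out.

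**Figure D2:**
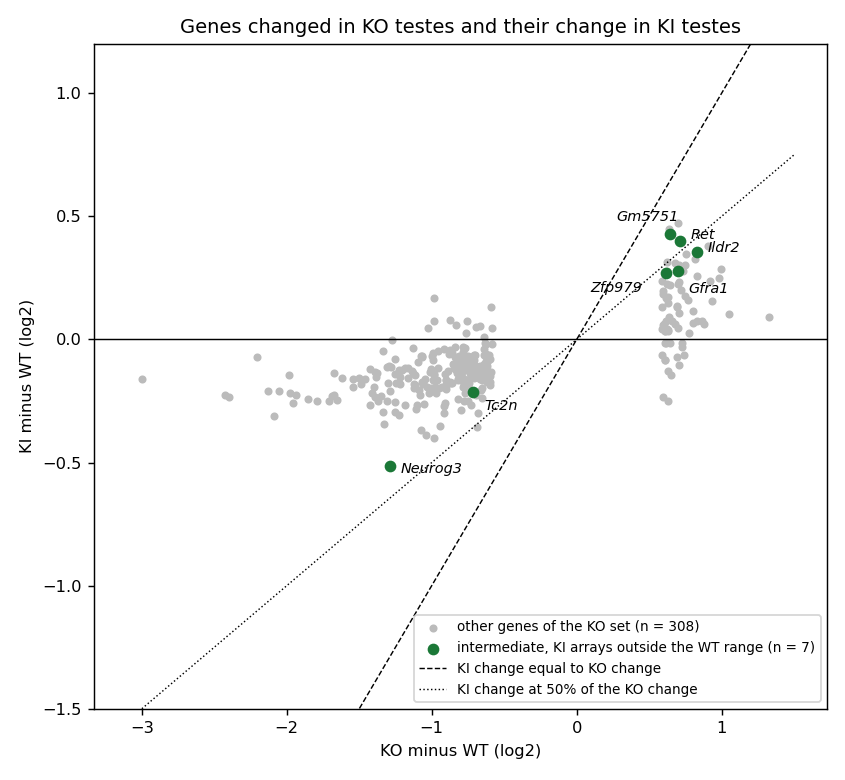
Change in KO (horizontal axis) against change in KI (vertical axis), both as log2 difference from the 6 WT testes, for the 315 genes changed at least 1.5-fold in KO. Green points are the 7 genes with recovery of 25% to 75% and all KI testes beyond the WT range, and the lines mark a KI change equal to the KO change and at 50% of it. Both axes use the same WT testes. Nearly all points lie closer to the horizontal line of no KI change than to the line of equal change.

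The genes with the largest KO decreases included genes of meiotic and later germ cells. The level of Fabp9, a lipid carrier of the sperm acrosome region, was 5.69, 8.59 and 5.60 in KO and 7.85 to 10.75 in WT, with a median of 10.12. In KI it was 9.11, 9.71 and 9.59, all within the WT range. Its KO difference was -3.00 and its KI difference -0.16, but the interval of the latter ran from -1.74 to 1.42. Kctd19, needed for meiotic progression, was at 9.004, 9.90 and 9.65 in KI, 8.45 to 10.43 in WT and 6.83, 8.93 and 6.29 in KO. Hsf5, a heat shock factor of spermatocytes, was at 8.49, 9.14 and 8.81 in KI, 7.99 to 9.75 in WT and 6.46, 8.20 and 6.51 in KO. For Kctd19 and Hsf5, as for Fabp9, KI and WT overlapped, and KO 2 sat inside the WT range.

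Over the 10 largest KO decreases, which also included Cers3, a ceramide synthase gene, recovery ran from 85.2% to 96.7%, the KI difference from -0.31 to -0.07, and every KI testis was within the WT range. The low ends of these ranges came from WT 4 and WT 6. Against own littermates the same 10 genes had KI differences of -0.81 to -0.56, with Fabp9 at -0.77 and Kctd19 at -0.66. In 6 of the 10 all KI testes were below all 3 of these WT testes, which was seen in 6.07% of all genes. The 10 genes were chosen by a KO decrease measured in part from the same WT testes, which favours genes high in them. That choice can enlarge the KI differences from own littermates, so the share was not tested against that of all genes. The Fabp9 interval against own littermates still ran from -2.52 to 0.98. The WT ranges spanned more than 1 log2 unit, so overlap with them leaves room for sizeable differences. Over the 10 largest KO increases recovery ran from 57.1% to 93.1%, and in 4 every KI testis was within the WT range. Sel1l3, the gene with the largest KO increase, was at 7.88, 7.51 and 7.63 in KI, 7.14 to 8.25 in WT and 9.28, 8.21 and 9.24 in KO. Socs2, an inhibitor of cytokine and growth hormone signalling, was at 7.45, 7.42 and 7.48 in KI, 6.88 to 7.76 in WT and 9.08, 7.74 and 8.37 in KO. Erbb3, a receptor for neuregulins, had a recovery of 93.05% at a KO difference of 0.88, while Myoz2, a gene of striated muscle, had 58.0% at 0.91.

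The measured degree of restoration depended on which WT testes were the controls. With the 315 genes kept the same, median recovery was 62.3% when each mutant was set against its own littermates and 99.0% against the WT of the other litters. Leaving out KI 1 raised it to 95.5%, and leaving out KI 2 or KI 3 lowered it to 76.5% or 81.0%. Leaving out WT 4 or WT 6 gave 79.5% or 78.1%, and the other single arrays gave 82.1% to 89.9%. What set the litters apart was not tested.

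A gene set that shared no array with the KI comparison was formed from KO against KO littermates alone. No gene passed adjustment there, so 125 genes with an unadjusted p under 0.01 and at least 1.5-fold were taken, 47 higher (0.212%) and 78 lower (0.352%), of which 88 are also among the 315. KI was then set against KI littermates. Median recovery was 80.9%, with 82.8% for the higher and 78.0% for the lower genes, and 3 genes were under 25%, 48 between 25% and 75% and 74 over 75%. This median lies between those of the fixed set under own and under pooled controls. These genes too were chosen by their KO change, which can raise recovery.

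Each testis was also placed on the line from the WT mean, at 0%, to the KO mean, at 100%, by its median over the set. In the 315 genes, the lower genes put KI 1 at 38.9%, KI 2 at 0.01% and KI 3 at 9.25%, all within the WT span of -33.3% to 46.9%. The higher genes put them at 28.8%, 10.7% and 12.7%, where KI 1 was above the WT span of -15.4% to 25.5%. In the 125 genes with own littermates as the zero, the higher genes put KI at 23.6%, 16.9% and 18.3% against -16.2% to 5.54% in WT. The lower genes there put KI at 48.6%, 11.8% and 11.3% against -22.4% to 10.4% in WT. In that set all 3 KI testes lay above every WT testis for the higher and the lower genes, KI 1 by the most. For the lower genes KI 2 and KI 3 passed the highest WT testis only narrowly. Each WT testis was part of its own zero, which can narrow the WT span, while the KI testes were not. The WT littermates of KO mice also served to choose these genes. Whether the KI testes were displaced towards KO was therefore not tested. None of them reached the KO testes, of which the lowest was at 53.9%.

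**Figure D3:**
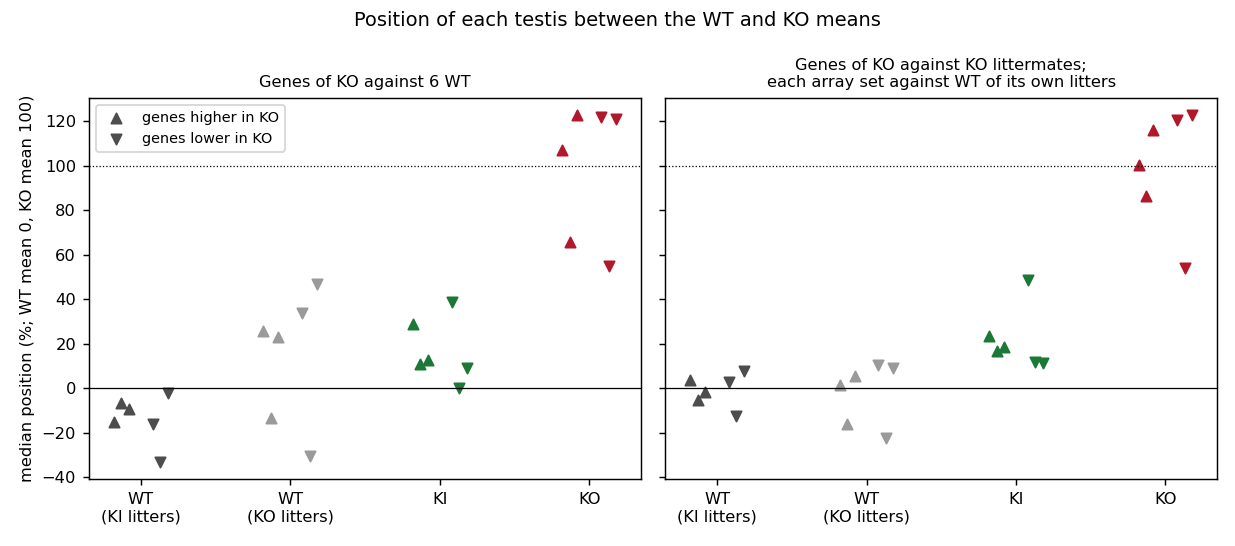
Median position of each testis between the WT mean (0%) and the KO mean (100%), for genes higher (upward triangles) and lower (downward triangles) in KO. The left panel uses the 315 genes and all 6 WT testes as zero, the right panel uses the 125 genes and the WT testes of the same litters as zero. At left the KI testes lie within the WT span, except KI 1, which is above it for the higher genes. At right all 3 KI testes lie above every WT testis, in part narrowly for the lower genes. At right each WT testis is part of its own zero, which can narrow the WT span.

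An intermediate gene was defined as one of the 315 with a recovery of 25% to 75% whose 3 KI testes all lay beyond the WT range on the KO side. Of the 62 genes between the limits, 55 had KI testes that overlapped WT, and 7 met the rule. These were Gfra1, Ret, Ildr2, Gm5751 and Zfp979, higher in KO, and Neurog3 and Tc2n, lower in KO. Over all 22180 genes the KI testes lay wholly above WT in 1.79% and wholly below in 1.31%, against 5 of the 75 and 2 of the 240. Counted on the KO side of each gene, all KI testes lay beyond the WT range in 7 of the 315. The same was seen in 481 of all 22180 genes, a like share, so the number of intermediate genes does not stand out. On the side away from KO the counts were 0 of the 315 and 207 of all genes. Both comparisons share the WT testes. The 7 were picked by their values, so what follows describes them without a test.

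Neurog3, a basic helix-loop-helix factor of committed progenitors, was the intermediate gene with the largest KO decrease. Its level was 6.17, 5.97 and 6.19 in KI, against 6.45 to 6.83 in WT, with a median of 6.58, and 5.39, 5.09 and 5.53 in KO. The 3 groups did not overlap. The KI difference was -0.51 (95% interval -0.77 to -0.26), the KO difference was -1.29 and recovery was 60.2%. Against own littermates the KI difference was -0.43. Neurog3 met the rule in 20 of 21 settings, the 12 that left out 1 array included, and was not tested in the one that left out genes below the median level.

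Gfra1, the binding subunit of the GDNF receptor, moved the opposite way. Its level was 6.91, 6.85 and 6.80 in KI, 6.41 to 6.66 in WT, with a median of 6.59, and 7.27, 7.20 and 7.33 in KO, with no overlap between groups. The KI difference was 0.28 (95% interval 0.13 to 0.43), the KO difference 0.70 and recovery 60.1%. Gfra1 met the rule in 20 of 21 settings, but not when its 2 transcript clusters were averaged. The other cluster was under background, at 3.93 in KI, 3.74 in WT and 3.54 in KO.

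Ret, the kinase subunit of the same receptor, kept more of its KO change. Its level was 7.89, 7.55 and 7.69 in KI, 7.18 to 7.51 in WT, with a median of 7.27, and 8.03, 7.86 and 8.18 in KO. KI 1 at 7.89 passed the lowest KO testis, so KI overlapped KO but not WT. The KI difference was 0.40 (95% interval 0.18 to 0.62), the KO difference 0.71 and recovery 43.9%, which as a fraction ranged from 0.329 to 0.563 when single arrays were left out. With same-litter controls the Ret recovery was 0.230 as a fraction, from a KI difference of 0.49 and a KO difference of 0.63, which is under the lower limit of the rule, and with other-litter controls it was 0.603. Ret met the rule in 18 of 21 settings, and not with same-litter controls, without KO 1 or without KO 3.

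Ildr2, an immunoglobulin-like membrane protein gene, was at 7.996, 7.83 and 7.89 in KI, 7.24 to 7.79 in WT and 8.34, 8.26 and 8.54 in KO. Its KI difference was 0.36 (95% interval 0.10 to 0.61), the KO difference 0.83 and recovery 57.1%, and it met the rule in 17 of 21 settings. A dimmer Ildr2 cluster showed a KI difference of -0.15 and a KO difference of 0.0007, so only the brighter one followed the pattern. Tc2n, a C2 domain protein gene, was at 8.93, 9.16 and 9.14 in KI, 9.18 to 9.48 in WT and 8.44, 8.89 and 8.40 in KO. Its KI difference was -0.21, with a 95% interval of -0.45 to 0.02 that held 0. Tc2n had a recovery of 69.9% and met the rule in 16 of 21 settings. It was lost with same-litter controls, without any 1 of the 3 KO testes and without KI 1, where recovery was 0.803 as a fraction.

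The other 2 intermediate genes were less steady, each meeting the rule in 8 of 21 settings. Gm5751, an X-linked predicted gene near background, was at 5.47, 5.54 and 5.46 in KI, 4.57 to 5.33 in WT and 5.72, 5.52 and 5.88 in KO, with a recovery of 33.7%. KI and KO overlapped there. Zfp979, a zinc finger gene, was at 5.90, 5.56 and 5.54 in KI, 5.17 to 5.51 in WT and 5.64, 6.01 and 6.41 in KO, with a recovery of 56.5%, and another Zfp979 cluster of like brightness had a KI difference of -0.16.

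Among the 55 genes between the limits whose KI testes overlapped WT, Sox3 had a recovery of 56.0%. As the replaced gene, with probe positions not used, its value need not measure restoration. Creb5, a CREB family factor gene, had KI and KO differences of 0.35 and 0.75, Map3k5, a stress kinase gene, of 0.31 and 0.68, and Erbb4, a neuregulin receptor gene, of 0.24 and 0.59. Meiotic genes were there too: Tex12 and Sycp1, components of the synaptonemal complex, had KI differences of -0.25 and -0.19 against KO differences of -0.75 each. Terb1, which anchors telomeres in meiosis, had -0.20 against -0.66, and Msh5, a crossover factor gene, -0.17 against -0.62. Nearest the lower limit were Cryba1 at 29.9% and Mir133a-2 at 32.5%, both under background. At the upper limit Stk17b and Shisa8, both at 74.4%, were just inside, and Zfp389 and H1f6, both at 75.1%, were just outside.

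By role, Gfra1, Ret, Sox3 and Neurog3, all 4 genes of the KO set that stand in the stem-enriched or progenitor lists, were between the limits. Over the whole set 62 of 315 genes were, 31 of the 75 higher and 31 of the 240 lower in KO. These lists were written with earlier results known, and the counts by role were not tested. Sox3 is the replaced gene, so its level need not measure restoration. Of the other roles, 4 of 18 early meiotic genes of the set, 0 of 11 pachytene genes and 1 of 6 pan-germ cell genes were between the limits. Among Leydig cell genes Hsd3b1, a steroid dehydrogenase gene with close paralogs, was past full recovery at 139%, with a KI difference of -0.25 and a KO difference of 0.63. Cyp2j6, a cytochrome P450 gene, was at 140%.

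Whole gene lists were then compared by the median change of their measured members, beside -0.001 over all genes in KI and 0.04 in KO. Of all genes 11008 were higher and 11172 lower in KI. Limma called no member of any of the 22 lists in KI (0%), with counts at an unadjusted p under 0.05 of 0 to 2 a list. The lists were written with earlier results of these data known. In bulk testis, fewer cells of a type and less RNA per cell cannot be told apart.

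Stem-enriched spermatogonial genes had like medians in KI and KO, but gene by gene the median of KI minus KO was -0.08 (-0.05 over all genes). Of 19 measured genes 15 were higher in KI, with a median change of 0.14 in KI and 0.12 in KO, where 5 rose. The list mean was 6.99, 6.84 and 6.85 in KI, 6.72 to 6.84 in WT and 6.91 to 6.998 in KO, so all KI testes were above all WT testes, KI 2 by a narrow margin. Without Gfra1 and Ret the median over the other 17 genes was still 0.14, with KI list means of 6.94, 6.80 and 6.81 against 6.70 to 6.81 in WT, where KI 2 and KI 3 overlapped WT 6. Foxc2, a forkhead factor of quiescent stem spermatogonia, had a KI difference of 0.18 and a KO difference of 0.52, and the adhesion gene Mcam had 0.13 and 0.40. Genes that respond to GDNF and FGF had a KI median of 0.14, with Etv5 at 0.14 in KI and 0.35 in KO. This list also holds immediate early genes, and without KI 1 its median was 0.04.

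Progenitor and differentiating spermatogonial lists were near WT as wholes. The 16 committed progenitor genes had a KI median of -0.01 and a KO median of -0.12, with 8 higher and 8 lower in KI, and Neurog3 was the lowest of them. The 15 differentiating genes had a KI median of 0.003 and a KO median of -0.17. Dnmt3a, a DNA methyltransferase gene, had a KI difference of 0.20 and a KO difference of 0.31.

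Meiotic lists had much lower medians in KO, while in KI their difference was small and depended on the controls. Of 34 early meiotic genes 28 were lower in KI, with a median of -0.12, and in KO 23 fell, with a median of -0.63. Of 29 pachytene genes 25 were lower in KI, with a median of -0.12, and in KO 13 fell, with a median of -0.71. Spata22, needed for meiotic recombination, had a KI difference of -0.25 (95% interval -0.74 to 0.24) and a KO difference of -1.25, and Brdt, a bromodomain protein gene of spermatocytes, had -0.18 and -1.30. The pachytene median in KI was -0.28 against same-litter and 0.05 against other-litter controls, so its direction turned, and it was -0.01 without KI 1 and -0.26 without WT 6. The early meiotic median in KI was -0.18 and -0.05 with these controls, -0.02 without KI 1 and -0.21 without KI 3. Early meiotic list means were 8.40, 8.63 and 8.69 in KI, 7.77, 8.37 and 7.89 in KO and 8.52 to 8.82 in WT. Of the KI testes KI 1 alone was below the WT range, and all KO testes were. Pachytene list means were 7.01, 7.68 and 7.04 in KO and 7.57 to 8.54 in WT, so KO 2 lay inside the WT range. Pan-germ cell genes had medians of -0.11 in KI (-0.20 with same-litter and -0.04 with other-litter controls) and -0.51 in KO, and cell division genes -0.04 and -0.25, with Top2a, a topoisomerase of dividing cells, at -0.01 and -0.48.

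Somatic lists had higher medians than all genes in KO and were closer to WT in KI. The KI and KO medians were 0.06 and 0.20 for Sertoli cell markers, 0.11 and 0.32 for Leydig cell markers, 0.06 and 0.18 for peritubular markers, 0.003 and 0.25 for interstitial fibroblast markers and 0.09 and 0.13 for endothelial markers. The KI median of the Leydig list turned to -0.09 with other-litter controls, -0.04 without KI 1 and -0.01 without WT 4. Those of the Sertoli, peritubular and endothelial lists stayed above 0 in every setting run, the lowest being 0.01, 0.01 and 0.03. Fshr, the follicle-stimulating hormone receptor of Sertoli cells, had a KI difference of 0.09 and a KO difference of 0.36, and the fibroblast gene Pdgfra had 0.07 and 0.56. Macrophage markers (0.008 and 0.09), p53 targets (0.04 and 0.10), neural SoxB1 target genes (0.004 and 0.10), retinoic acid pathway genes (0.0002 and -0.07), histone genes (-0.04 and -0.02), spermatid genes (-0.03 and 0.006), SOX genes (-0.009 and 0.02) and erythroid markers (0.02 and 0.11) had smaller medians. Epididymis markers, under background as a list mean in every testis, had -0.07 in KI and 0.11 in KO, with all 3 KI means below WT at 4.96 to 5.02.

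**Figure D4:**
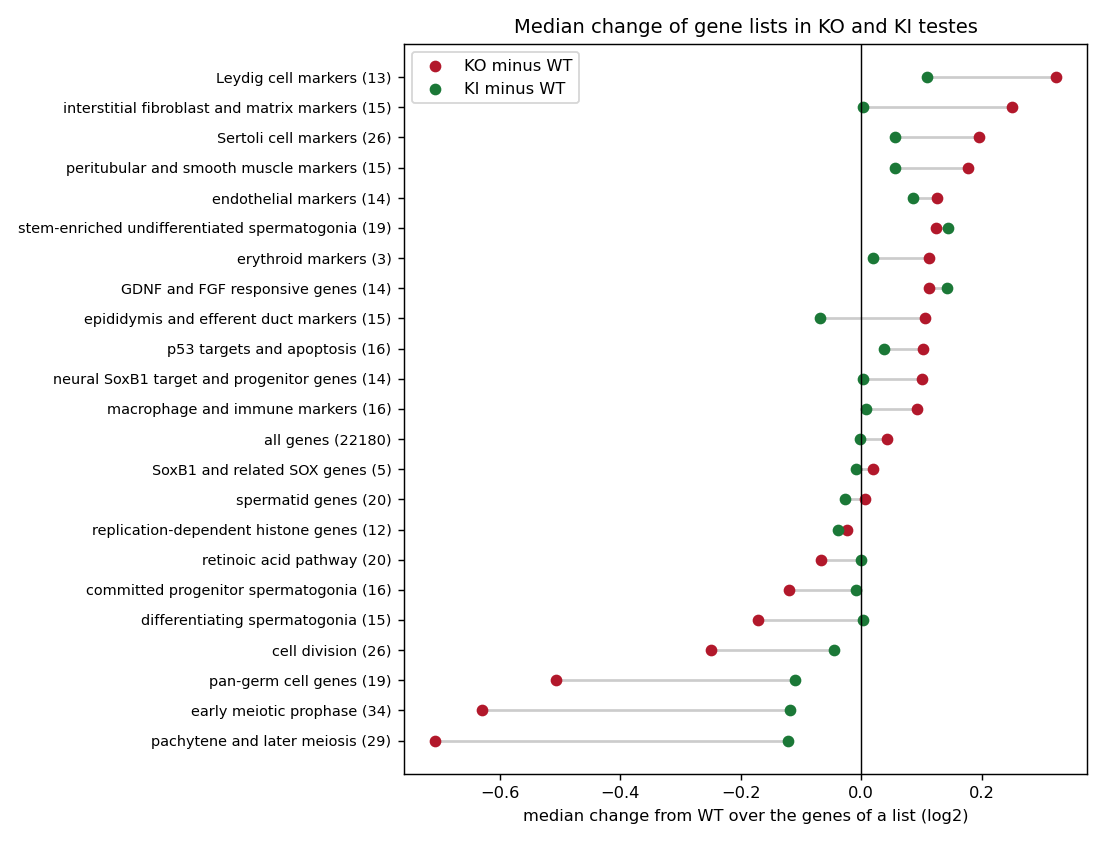
Median log2 change from the 6 WT testes over the measured genes of each list (number in brackets), in KI (green) and KO (red). Both groups are set against the same WT testes. The meiotic and germ cell lists have KO medians of -0.51 to -0.71 with KI medians of -0.11 to -0.12 (pachytene 0.05 with other-litter controls). The stem-enriched list has medians of 0.14 in KI and 0.12 in KO, while gene by gene its median KI minus KO is -0.08.

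**Figure D5:**
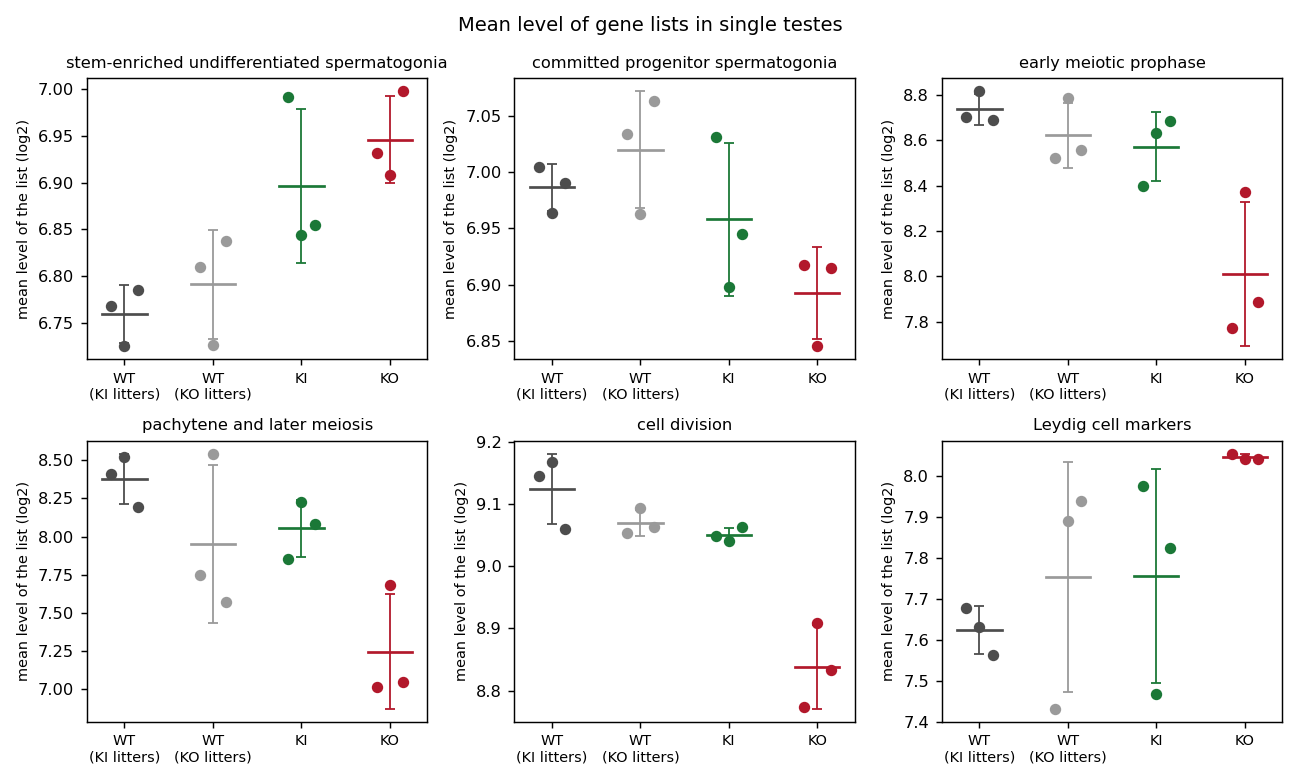
Mean log2 level of 6 gene lists in each testis, with group mean and 1 SD. All 3 KI testes lie above the WT testes in the stem-enriched list, while in the pachytene list they lie within the WT span of 7.57 to 8.54.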

How the data were processed

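The authors deposited log2 expression values per transcript cluster for 12 arrays, each of a single testis. Per the submitters' processing notes the tools were RMA, Partek 6.6 and Affymetrix Expression Console, without saying which did what. Other settings of the authors' processing are not given in the sources. Array medians lay from 5.74 to 5.82, as RMA gives arrays like distributions, and changes are therefore relative to the rest of the array. Arrays give no counts, and their number limits the precision. The labels call the replicates biological.

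Of 41345 clusters, 16010 carried no symbol and 1814 more than 1, and neither were used. The 23521 with 1 symbol gave 22180 genes, 1082 of them with several clusters, and 21994 matched RefSeq (GRCm38.p6) by Entrez number. Limma 3.58.1 (lmFit and eBayes, R 4.3.3) fitted all 12 arrays as 3 genotype groups on the log2 values, two-sided, with Benjamini-Hochberg adjustment over 22180 genes at 0.05, and was tested on simulated data. Exact permutation tests used scipy 1.17.1 with Python 3.11.15, numpy 2.4.6 and pandas 2.3.3, and figures matplotlib 3.10.9.

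Named genes were Sox3, Sox2, Sox1 and Neurog3, the 10 genes of smallest p in each direction in KI, the 10 largest KO changes in each direction, the intermediate genes, and of each list up to 4 members called in KO, or else the 2 of highest level. Any other gene named was picked once its values had been seen. The members, lists, rules and tests were chosen with earlier results of these data known. The sets of alternatives were other normalizations, a filter on dim genes, averaged clusters, array weights, a robust fit, other controls, KI and WT arrays alone, other fold limits, and leaving out each array. Leaving arrays out of the fixed set of 315 genes, dropping Gfra1 and Ret from their list, and the immediate early and adipocyte lists were added after seeing the data.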

Additional observations from a re-analysis of the deposited data

Results flagged for a closer look

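Of 122 groups of 6 WT testes checked for a sample far from the rest, 4 were marked by Dixon's ratio of the gap to the range at its 95% critical value. Chance flags about 1 in 20 groups. Tc2n had WT 5 at 9.48 against 9.18 to 9.29 in the other WT testes (ratio 0.657). H2ac1, a testis histone gene, had WT 5 at 13.48 against 13.31 to 13.37 (ratio 0.641). The mean of the interstitial fibroblast and matrix list was 8.74 in WT 5 against 8.97 to 9.09 (ratio 0.662). The mean of the p53 target and apoptosis list was 7.41 in WT 2 against 7.48 to 7.51 (ratio 0.651). WT 5 was thus the outlying testis in 3 of the 4.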

How the results depend on the processing

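The 0 genes called in KI against 6 WT, and the share of genes whose interval lay within 1.5-fold (86.5% to 92.8% without 1 array), kept their side under every alternative run, and no named gene's KI change was called. The KO set was less steady. KO called 2459 genes above the median level, 2048 with a robust trend and 2 against same-litter controls, and 2 to 2323 with 1 array left out, the highest without KO 2, 2 without KO 3, 3 without KO 1 and 18 to 36 without WT 1, 2, 3 or 5. KI against KO called 57 genes above the median level, 5 with a robust trend, and 0 to 721 with 1 array left out. KO against KO littermates called 0 to 605 with 1 array left out. Intermediate genes numbered 4 above the median level, 4 with averaged clusters, 2 with same-litter controls, 44 with any fold, 1 at 2-fold, and 2 to 18 with 1 array left out. Recovery, as a fraction of the re-chosen sets, was 0.637 with same-litter controls, 1.061 with other-litter controls, and 0.605 to 0.950 with 1 array left out. The KI median changed sign under some setting in 12 of the 22 lists, of which the Leydig list (-0.09 to 0.17) and the pachytene list (-0.28 to 0.05) had a median over 0.05 in size to begin with. Without KI 1 that of the GDNF and FGF list was 0.04.

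Same-numbered KI and WT testes correlated at 0.07, 0.04 and -0.02, and those of unlike number at -0.07 to 0.04. With so few testes this cannot decide whether same-numbered testes were paired. With the replicate block, KI against KI littermates called 0 genes, as without it. Dim genes limit what these arrays show, since 7649 of 22180 genes were under background in WT, Sox2 among them. With 3 KI testes, differences under 1.2-fold were within the interval for most genes.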
